A study of Mus musculus with 27 samples.

Results

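Mitochondrially encoded transcripts are the RNAs copied from the mitochondrial genome itself, as opposed to the many nuclear transcripts whose proteins are imported into mitochondria. They were taken as every row of the count table whose mouse Ensembl identifier carries a symbol beginning with mt-, which gave 37 genes of 47729 rows. Of these, 13 encode proteins, 2 encode ribosomal RNAs and 22 encode transfer RNAs. A count was recorded for 34 of them in at least 1 library, and the transfer RNA genes mt-Ty, mt-Tr and mt-Tl2 had none. The filter on low counts left 18 members for testing, namely the 13 protein-coding genes, both ribosomal RNAs and the transfer RNAs mt-Tq, mt-Ts1 and mt-Te, and the other 19, all transfer RNAs, were not tested.

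RNA was sequenced in bulk from CD8+ T cells sorted from MC38 tumours, which grow in mice from a colon adenocarcinoma line, after tumour dissociation and staining for viability, CD45, CD3, CD8, PD-1 and KLRG1. PD-1 restrains T cells after activation, and KLRG1 is a lectin-like inhibitory receptor found on effector T cells. The 27 libraries fall into 6 groups, which are Tri PD1+KLRG1+ (n = 5), Tri PD1+KLRG1- (n = 5), Tri PD1-KLRG1+ (n = 4), Tri PD1-KLRG1- (n = 5), Iso PD1-KLRG1+ (n = 4) and Iso PD1-KLRG1- (n = 4). Tri denotes mice given the combined immunotherapy of the study, whose components the labels do not spell out, and Iso denotes mice given isotype control antibody. The time of harvest and the age and strain of the mice are not in the labels, all groups share the MC38 tumour, and PD1+ libraries come from Tri mice only, so that treatment could be compared in PD1- cells alone. The labels do not say that replicates are separate mice, so the p-values below measure the spread between these libraries, which may be partly technical.

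The mitochondrial genome is a small circle transcribed from both strands into long precursors, which are cut apart largely at the transfer RNAs that lie between the other genes. Its messenger RNAs encode the core subunits of respiratory complexes I, III and IV and of the ATP synthase, complex V. The remaining subunits and the protein factors for copying, processing and translating these RNAs are encoded in the nucleus. Activated T cells enlarge their mitochondrial mass and change their use of respiration, and impaired mitochondria have been described in T cells inside tumours.

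The 3 transfer RNAs that could be tested are shown first because all 3 are encoded on the strand opposite to most members, so that their few counts lie where the long precursor of the other strand also runs. Positions are on build GRCm38 with the GENCODE M21 annotation, each is an exon of a transfer RNA gene, and capitals mark bases shared with the neighbouring gene on the other strand, of which mt-Te has none.

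mt-Ts1, a serine transfer RNA, chrM:6870-6938 (-): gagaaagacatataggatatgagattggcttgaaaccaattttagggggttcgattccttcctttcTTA

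mt-Te, the glutamate transfer RNA, chrM:14071-14139 (-): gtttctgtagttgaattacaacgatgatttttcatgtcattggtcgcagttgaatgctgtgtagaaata

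mt-Tq, the glutamine transfer RNA, chrM:3772-3842 (-): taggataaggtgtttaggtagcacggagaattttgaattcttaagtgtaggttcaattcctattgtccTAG

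Neighbouring messenger RNAs also share sequence. The coding exons of mt-Atp8 and mt-Atp6, both complex V subunits, overlap by 43 bases on the same strand, and those of mt-Nd4l and mt-Nd4, both complex I subunits, by 7 bases. In the next pair of stretches, read on the + strand, capitals mark the bases that lie in both genes.

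mt-Atp8 into mt-Atp6, chrM:7907-7989 (+): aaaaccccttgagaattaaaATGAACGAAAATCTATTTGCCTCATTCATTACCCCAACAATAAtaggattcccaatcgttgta

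mt-Nd4l into mt-Nd4, chrM:10147-10193 (+): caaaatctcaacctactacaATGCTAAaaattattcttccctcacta

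The genes mt-Nd5 and mt-Nd6 overlap by 14 bases on opposite strands, and mt-Co1 and mt-Ts1 by 3. Whether strand was used in counting is not given in the sources used here, so reads of mt-Nd6, mt-Ts1, mt-Te and mt-Tq cannot be told apart from those of the opposite transcript at the same place.

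A block of nuclear copies on chromosome 1 takes part of the reads of 7 members. These pseudogenes, unprocessed copies of mitochondrial DNA inserted into the nuclear genome, lie on the - strand between chr1:24611535-24612410, where Gm28439 is, and chr1:24615706-24616197, where Gm29216 is. Gm28661 is identical to mt-Co2 over 681 bases, Gm10925 to mt-Atp6 over 678, Gm28437 to mt-Co3 over 783, Gm10222 to mt-Nd4l over 294 and Gm28439 to mt-Nd4 over 876. Gm28438 differs from mt-Nd3 at 1 of 345 aligned bases and Gm29216 from mt-Co1 at 1 of 483. The stretches around these 2 differing bases are printed below, with the differing base in capitals, because no other base of the aligned stretches tells the 2 sequences of a pair apart.

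mt-Nd3, chrM:9459-9486 (+): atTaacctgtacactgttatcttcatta

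Gm28438, chr1:24613092-24613119 (-): atCaacctgtacactgttatcttcatta

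mt-Co1, chrM:6390-6418 (+): ggaAttgttttatccaactcatcccttga

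Gm29216, chr1:24616160-24616188 (-): ggaTttgttttatccaactcatcccttga

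Counts were divided between these pairs very unevenly. For mt-Co3, a complex IV subunit, the pseudogene Gm28437 held a median of 62.3% of the pair's counts (range 53.0% to 86.3% over the 27 libraries) and was above mt-Co3 in all 27. For mt-Nd4l the median share of Gm10222 was 100%, and mt-Nd4l itself had a count in 10 libraries only. Its 17 zeros allow a level of up to 0.142 to 0.429 CPM in 16 libraries and 32.2 CPM in the smallest, on the rule of 3 counts, whereas Gm10222 had between 1.25 and 190.6 CPM over the 27 libraries. The share was 24.6% for mt-Co1 with Gm29216, 17.6% for mt-Nd3 with Gm28438, 13.6% for mt-Co2 with Gm28661, 10.4% for mt-Atp6 with Gm10925 and 0.0912% for mt-Nd4 with Gm28439. How the authors' counting treated reads that match 2 places is not given in the sources used here, so levels of mt-Co1, mt-Co2, mt-Co3, mt-Atp6, mt-Nd3 and mt-Nd4l are uncertain. A second pair of copies on chromosome 2, Gm13340 and Gm13341, matches mt-Co1 and mt-Co2 at 97.6% and 95.9% and stayed at or below 3.71 CPM in every library. No copy among the 10 pseudogenes searched matched mt-Rnr1, mt-Rnr2, mt-Nd1, mt-Nd2, mt-Nd5, mt-Nd6 or mt-Cytb, and mt-Atp8 matched only in the 43 bases it shares with mt-Atp6.

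**Figure D1:**
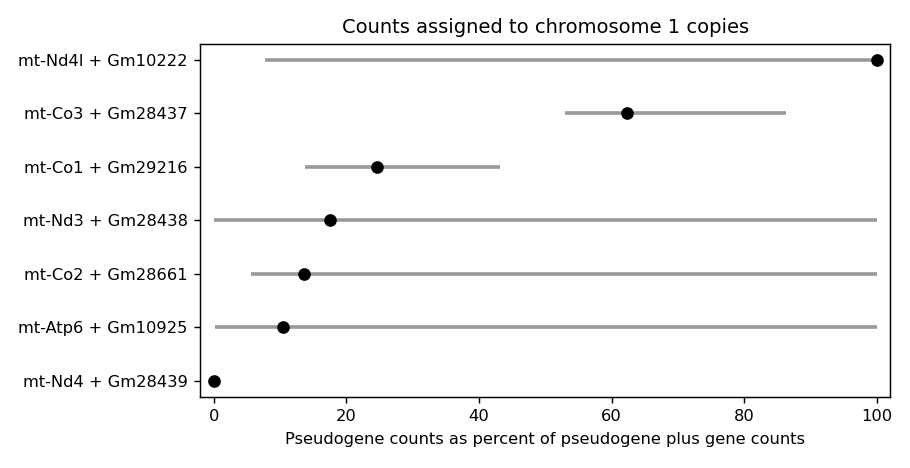
Counts assigned to each chromosome 1 pseudogene as a percentage of pseudogene plus gene counts (x axis) for the 7 pairs (y axis). Points are medians and bars the range over 27 libraries. Gm28437 held more than mt-Co3 in every library, with a lowest share of 53.0%, and Gm28439 held a median of 0.0912% of its pair with mt-Nd4.

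Levels per base differed widely among the members although nearly all derive from the same precursors. On the scale of CPM per kilobase of gene (CPM per kb), where CPM is counts scaled to a common library total, median levels over the 27 libraries were 2055 for mt-Atp6, 1554 for mt-Co1, 1367 for mt-Co2, 824 for mt-Cytb, the cytochrome b of complex III, 803 for mt-Co3 and 754 for mt-Nd1. Lower medians were 390 for mt-Nd4, 304 for mt-Atp8, 195 for mt-Nd5, 155 for mt-Nd6, 154 for mt-Nd2 and 60.0 for mt-Nd3, all CPM per kb. With the pseudogene counts added, the pairs mt-Atp6, mt-Co1, mt-Co3 and mt-Co2 stood at 2311, 2114, 2061 and 1523 CPM per kb, so that mt-Co3 moved close to mt-Co1. The large ribosomal RNA, mt-Rnr2, had 692 CPM per kb and the small one, mt-Rnr1, had 111. Of all counts in members, pooled over the libraries, 38.9% were in complex IV messenger RNAs, 20.3% in the 7 of complex I, 17.3% in complex V, 11.7% in mt-Cytb, 11.7% in the ribosomal RNAs and 0.118% in transfer RNAs. Iso PD1-KLRG1+ replicate 4 weighed most in this pool, with 1696923 member counts, of which 6.40% were in ribosomal RNAs. The next highest library, Iso PD1-KLRG1- replicate 3, held 553721. Among transfer RNAs mt-Ts1 held 5890 counts over all libraries, mt-Te 370 and mt-Tq 298, and each of the others at most 49.

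The share of a library's counts in members was higher in every Iso PD1-KLRG1- library than in every Tri library. The Iso PD1-KLRG1+ libraries spread from below the Tri range to above it. It was 0.596%, 1.18%, 1.12%, 0.792% and 0.933% in Tri PD1+KLRG1+ libraries and 0.876%, 0.603%, 1.02%, 0.554% and 0.696% in Tri PD1+KLRG1- libraries. Tri PD1-KLRG1+ libraries had 0.585%, 1.28%, 0.837% and 0.432%, and Tri PD1-KLRG1- libraries had 1.07%, 0.566%, 1.06%, 0.416% and 0.986%. Iso PD1-KLRG1+ libraries had 2.15%, 1.11%, 0.353% and 8.51%, and Iso PD1-KLRG1- libraries had 1.81%, 3.02%, 3.62% and 1.37%. Iso PD1-KLRG1+ held both the lowest and the highest value of the series, its replicate 2 lay inside the Tri range, and only its replicates 1 and 4 were above all Tri libraries. The means were 0.926% ± 0.241 in Tri PD1+KLRG1+ (SD, n = 5), 0.751% ± 0.196 in Tri PD1+KLRG1- (SD, n = 5), 0.783% ± 0.370 in Tri PD1-KLRG1+ (SD, n = 4), 0.820% ± 0.306 in Tri PD1-KLRG1- (SD, n = 5), 3.03% ± 3.73 in Iso PD1-KLRG1+ (SD, n = 4) and 2.45% ± 1.05 in Iso PD1-KLRG1- (SD, n = 4). The difference of means in PD1-KLRG1+ cells, Tri minus Iso, was -2.25 percentage points with all libraries and -0.42 without Iso replicate 4. No test was made on this sum. A share in sorted bulk cells cannot separate fewer cells of a type from less RNA per cell.

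**Figure D2:**
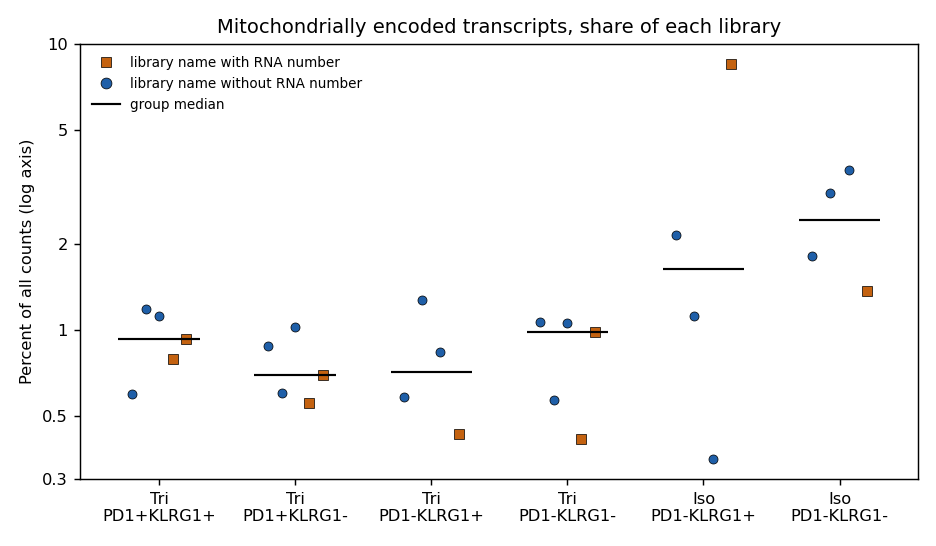
Percent of all counts in the 37 mitochondrially encoded genes (y axis, log scale) in each library of the 6 groups (x axis), with group medians as lines and the marker shape showing whether the library's name carries an RNA number. Tri libraries lie between 0.416% and 1.28%, and Iso libraries between 0.353% and 8.51%.

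Total counts ran from 6991521 to 26284630 in 26 libraries, and Iso PD1-KLRG1+ replicate 3 had 93198, of which 329 were in members (share 0.353%, 95% Wilson interval 0.317% to 0.393%, which like all such intervals here covers counting error only). Replicates of Iso PD1-KLRG1+ correlated at 0.539 to 0.658, those of every other group at 0.730 or more, and 9.81% to 29.4% of 6951 well-expressed genes had no count in each Iso PD1-KLRG1+ library, against at most 3.57% elsewhere. Within Iso PD1-KLRG1+, replicate 4 had the highest member share of the series (8.51%, interval 8.50% to 8.53%) and also the highest summed levels of myeloid markers, 11193 CPM, and of tumour and stroma markers, 3384 CPM, in the series. All 9 CD8 T cell markers had counts in all 27 libraries, at 7379 to 14045 CPM in sum. Pdcd1, which encodes PD-1, had 656 to 1646 CPM in the PD1+ libraries and 0 to 203.5 CPM in the PD1- libraries. The library names fall into 2 series, 9 with an RNA number and 18 without, which the labels do not explain. Each Iso group and Tri PD1-KLRG1+ had 1 library with the number and the other Tri groups had 2, and the fit included a term for it.

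In PD1-KLRG1- cells every tested member was lower in Tri than in Iso on the log2 scale, but none passed the threshold of an adjusted p under 0.05 over 14059 genes. By edgeR's quasi-likelihood test 0 of 18 members were called, where 0.804% of all genes were, and 14 of 18 had an unadjusted p under 0.05, where 8.0% of all genes did. DESeq2 called 6 lower in Tri, where it called 1.78% of all genes lower, and limma-voom, here always run with a weight for each library, called 12, where it called 5.22% lower. The log2 fold changes of the 18 members ran from -3.23 for mt-Nd4l (SE 2.94) to -0.86 for mt-Tq with a median of -1.78, against -0.09 for all genes. mt-Nd4l was at 0 in 4 of 5 Tri PD1-KLRG1- libraries, and with Gm10222 counts added it had -1.54 (SE 0.65).

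The complex I subunit mt-Nd2 had the smallest p, with 195, 108, 151, 61.1 and 204 CPM in Tri PD1-KLRG1- libraries and 388, 987, 1098 and 286 CPM in Iso PD1-KLRG1- libraries. All 5 Tri values lay below all 4 Iso values, and the log2 fold change was -2.33 ± 0.61 (SE, edgeR adjusted p = 0.0687). mt-Nd6, the complex I subunit encoded on the opposite strand, had 73.8, 41.9, 109, 33.6 and 106 CPM in Tri PD1-KLRG1- libraries and 199, 398, 436 and 99.3 CPM in Iso PD1-KLRG1- libraries. Here Iso replicate 4 lay inside the Tri range, and the log2 fold change was -1.98 ± 0.56 (SE, edgeR adjusted p = 0.107). For mt-Nd4 the values were 502, 309, 559.9, 163 and 537 CPM in Tri PD1-KLRG1- libraries and 994, 2066, 2219 and 631 CPM in Iso PD1-KLRG1- libraries, without overlap, with a log2 fold change of -1.83 ± 0.54 (SE, edgeR adjusted p = 0.137). For mt-Nd1 they were 725, 463, 757, 284 and 783 CPM in Tri PD1-KLRG1- libraries and 1413, 2358, 2977 and 1339 CPM in Iso PD1-KLRG1- libraries, again without overlap, with a log2 fold change of -1.83 ± 0.55 (SE, edgeR adjusted p = 0.142). These 4 members all encode complex I subunits, which make up 7 of the 18 members tested, and none of the 4 was called.

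By role, the log2 fold changes of the 7 complex I members ran from -3.23 to -1.43, the complex III member mt-Cytb had -1.63, the 3 complex IV members had -1.64 to -1.29, the 2 complex V members -1.66 to -1.26, the ribosomal RNAs -1.99 and -1.87, and the 3 transfer RNAs -2.26 to -0.86. Every Tri library was below every Iso library for 8 members, namely mt-Nd1, mt-Nd2, mt-Nd4, mt-Cytb, mt-Co1, mt-Co2, mt-Atp6 and mt-Atp8, where 3.9% of all genes showed this. mt-Rnr2 had 1627, 668, 1459, 481 and 854 CPM in Tri PD1-KLRG1- libraries and 2191, 6519, 5519.5 and 864 CPM in Iso PD1-KLRG1- libraries, where Iso replicate 4 lay inside the Tri range, as Iso replicates 1 and 4 did for mt-Rnr1. Of the 7 pairs with nuclear copies, 6 had every Tri library below every Iso library once summed, and mt-Co3 with Gm28437 had 685 to 2003 CPM in Tri PD1-KLRG1- libraries and 2406 to 4563 CPM in Iso PD1-KLRG1- libraries. The exception was mt-Co1 with Gm29216, at 3757 CPM in Tri PD1-KLRG1- replicate 3 and 3705.5 CPM in Iso PD1-KLRG1- replicate 4. With pseudogene counts added, 0 of 18 members were called and 16 had an unadjusted p under 0.05.

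The direction in PD1-KLRG1- cells was the same for all 18 members under 3 scalings, namely TMM, median-ratio size factors and scaling on nuclear genes alone. In the libraries without an RNA number (3 Tri and 3 Iso) all 18 were lower in Tri with a median log2 fold change of -1.74, and mt-Nd2 was called. In those with the number, 2 Tri libraries stood against 1 Iso library, 15 of 18 were lower, the median was -0.73 and none was called by edgeR, although 4 had an unadjusted p under 0.05. Without Iso PD1-KLRG1- replicate 4, mt-Nd2 and mt-Nd6 were called. The shares of all genes called in these settings are not given.

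Markers of other cells moved with this contrast. The 15 myeloid markers summed to 273 to 671 CPM in Tri PD1-KLRG1- libraries, with 10 to 13 of them detected, and to 798 to 4618 CPM in Iso PD1-KLRG1- libraries, with 13 to 15 detected. Cd74, the invariant chain of MHC class II, was the 1 myeloid marker called, at a log2 fold change of -2.85 ± 0.68 (SE, edgeR adjusted p = 0.0399). Of the 15, 14 had a log2 fold change below 0. The medians of Cd68 and Itgam were higher in Tri, at 39.8 and 11.9 CPM against 18.4 and 7.73 CPM in Iso PD1-KLRG1-. Csf1r, a receptor that defines macrophages, was at 0 in 4 of 5 Tri libraries and had 10.0 to 179.9 CPM in Iso libraries. The 10 tumour and stroma markers summed to 33.8 to 87.5 CPM in Tri PD1-KLRG1- libraries and 80.6 to 113.0 CPM in Iso PD1-KLRG1- libraries. Among them, Pecam1 had 31.3 to 55.1 CPM in Tri (median 49.1) and 23.3 to 65.9 CPM in Iso (median 37.3). Of 7 tested, 6 had a log2 fold change below 0. Krt8, an epithelial keratin, was at 0 in all of these libraries. Epcam was at 0 in 3 of 5 Tri libraries and had 2.50 to 5.47 CPM in Iso libraries. Col1a1, a fibroblast collagen, was called lower (edgeR adjusted p = 0.0278) and was at 0 in 4 of 5 Tri libraries. In Iso libraries it had a median of 13.3 CPM and a highest value of 26.9 CPM. Cytosolic ribosomal protein transcripts took 1.81% to 3.63% of counts in Tri PD1-KLRG1- libraries and 2.88% to 11.2% in Iso PD1-KLRG1- libraries. The 9 CD8 T cell markers summed to 12237 to 13477 CPM in Tri PD1-KLRG1- libraries and 8969 to 11059 CPM in Iso PD1-KLRG1- libraries, without overlap. Within Iso PD1-KLRG1-, replicate 4 had the highest myeloid sum, 4618 CPM, with the lowest member share, 1.37%, and replicate 2 had the lowest myeloid sum, 798 CPM, with a share of 3.02%. The part of these in the mitochondrial difference was not tested.

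Among mitochondrial messenger RNAs alone, which sets aside the overall share, the make-up was measured without a test. mt-Nd2 made up 2.01% ± 0.29 of them in Tri PD1-KLRG1- (SD, n = 5) and 3.16% ± 0.96 in Iso PD1-KLRG1- (SD, n = 4), with ranges of 1.67% to 2.30% in Tri PD1-KLRG1- and 2.26% to 4.28% in Iso PD1-KLRG1- that overlapped. mt-Co1 made up 28.6% ± 3.6 in Tri PD1-KLRG1- and 26.1% ± 2.2 in Iso PD1-KLRG1-, and mt-Cytb 11.6% ± 2.1 in Tri PD1-KLRG1- and 11.3% ± 1.3 in Iso PD1-KLRG1- (SD, n = 5 and 4).

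**Figure D3:**
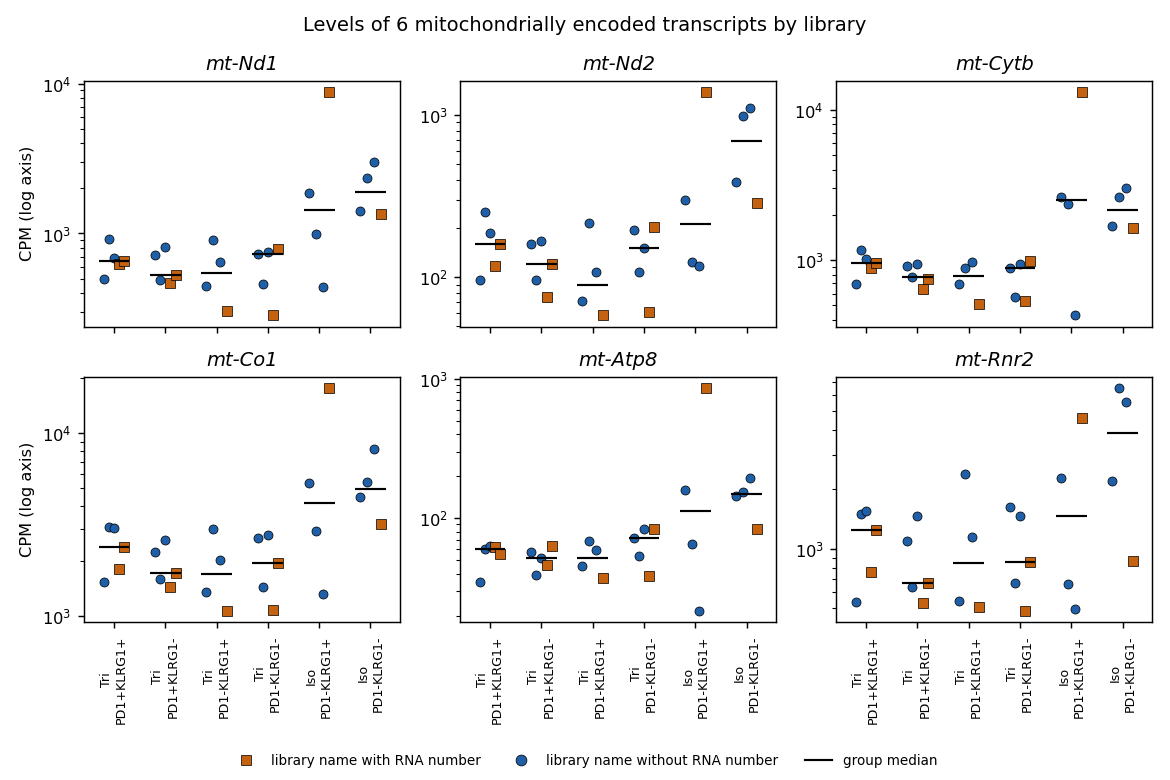
Levels of 6 members in CPM (y axes, log scale) in each library of the 6 groups (x axes), with group medians as lines and the marker shape showing the name series. For mt-Nd1, mt-Nd2, mt-Cytb, mt-Co1 and mt-Atp8 the 5 Tri PD1-KLRG1- libraries lie below the 4 Iso PD1-KLRG1- libraries, for mt-Rnr2 they overlap, and the Iso PD1-KLRG1+ libraries spread most widely.

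In PD1-KLRG1+ cells 4 members fell in Tri relative to Iso, namely mt-Cytb, mt-Nd1, mt-Atp8 and mt-Co1. With Iso replicate 4 alone left out none of the 4 was called. When Iso replicate 3 and Tri PD1-KLRG1- replicate 5 were left out as well, mt-Nd1 and mt-Cytb were called. With all libraries 4 of 18 members were called lower, where 0.619% of all genes were called lower. No member was called higher, where 5.46% of all genes were. mt-Cytb had 693, 888, 967 and 513 CPM in Tri PD1-KLRG1+ libraries and 2633, 2367, 429 and 13081 CPM in Iso PD1-KLRG1+ libraries. Iso replicate 3 was below every Tri library and Iso replicate 4 was several times above all others, and the log2 fold change was -2.51 ± 0.58 (SE, edgeR adjusted p = 0.00908). mt-Nd1 had 445, 912, 643 and 306 CPM in Tri PD1-KLRG1+ libraries and 1862, 990.0, 439.9 and 8761 CPM in Iso PD1-KLRG1+ libraries, with a log2 fold change of -2.35 ± 0.63 (SE, edgeR adjusted p = 0.0243). For mt-Atp8 the values were 45.1, 68.4, 58.8 and 37.4 CPM in Tri PD1-KLRG1+ libraries and 159, 65.1, 21.5 and 858 CPM in Iso PD1-KLRG1+ libraries, with a log2 fold change of -2.24 ± 0.64 (SE, edgeR adjusted p = 0.0368). For mt-Co1 they were 1364, 3008, 2025 and 1066 CPM in Tri PD1-KLRG1+ libraries and 5357, 2942, 1319.8 and 17698 CPM in Iso PD1-KLRG1+ libraries, with a log2 fold change of -1.93 ± 0.56 (SE, edgeR adjusted p = 0.0394). In all 4, replicate 3 was the lowest and replicate 4 the highest Iso library, and the groups overlapped for each of the 18 members, where 0.661% of all genes had every Tri library below every Iso library.

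All 18 log2 fold changes were negative in PD1-KLRG1+ cells, from -4.42 for mt-Nd4l (SE 3.62) to -0.92 for mt-Nd3, with a median of -1.93 against 0.34 for all genes, and 11 had an unadjusted p under 0.05, where 22.2% of all genes did. mt-Nd4l had 14.8, 15.6, 0 and 0 CPM in Tri PD1-KLRG1+ libraries and 0, 0, 0 and 29.8 CPM in Iso PD1-KLRG1+ libraries. Its mean, 7.59 CPM in Tri and 7.45 CPM in Iso, was thus not lower in Tri, unlike its fitted value. With Gm10222 counts added mt-Nd4l had -2.16 (SE 0.73). mt-Nd3 had 23.8, 49.9, 29.8 and 0 CPM in Tri PD1-KLRG1+ libraries and 20.9, 0, 0 and 198 CPM in Iso PD1-KLRG1+ libraries. With median-ratio size factors the median of all genes was 0.15 and that of the members -2.13, with all 18 still negative, as they also were with scaling on nuclear genes. The 7 complex I members ran from -4.42 to -0.92, mt-Cytb of complex III had -2.51, the 3 complex IV members had -1.93 to -1.89, the 2 of complex V -2.24 and -2.07, the ribosomal RNAs -1.21 and -1.05, and the 3 transfer RNAs -2.55 to -1.50. Iso PD1-KLRG1+ replicate 3 had no count of mt-Co2, mt-Atp6, mt-Nd3, mt-Ts1 or mt-Tq, which allows up to 32.2 CPM of each, while the copies Gm28661 and Gm10925 had 569 and 676 CPM there. With pseudogene counts added, mt-Co2, mt-Co3 and mt-Atp6 joined the 4 and 7 members were called. Counted on their own, Gm28661, Gm28437 and Gm10925 fell in Tri, with log2 fold changes of -3.26, -2.24 and -2.92 (edgeR adjusted p = 0.0013, 0.0132 and 0.0241), which are the copies of mt-Co2, mt-Co3 and mt-Atp6.

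The calls in PD1-KLRG1+ cells changed with single libraries and differed between the name series. Without Iso replicate 4 edgeR called 0 members, 1 had an unadjusted p under 0.05, 13 of 18 were lower and the median log2 fold change was -0.50. Without Iso replicates 3 and 4 and Tri PD1-KLRG1- replicate 5, which enters the shared fit, it called 2, mt-Nd1 and mt-Cytb. Without Iso replicate 3 it called 10 and without Iso replicate 2 it called 8, with the shares of all genes called not given. Without Tri replicates 1, 3 or 4 it called 1, 2 and 1, again without those shares. In libraries without an RNA number (3 Tri and 3 Iso) it called 0, 1 had an unadjusted p under 0.05 and the median log2 fold change was -0.44. In those with the number, 1 Tri library stood against 1 Iso library, replicate 4, with a median of -4.38 and 13 called, a fit that assumes each of these libraries varies like those of the other groups. DESeq2 called 9 lower, where it called 3.59% of all genes lower, limma-voom 0, where it called 0.0356% lower, and edgeR with a covariate for genes detected 0.

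Other-cell markers moved with this contrast too, and most in the same library. Myeloid markers summed to 206 to 282 CPM in Tri PD1-KLRG1+ libraries, with 12 or 13 of 15 detected, and to 1273, 843, 268 and 11193 CPM in Iso PD1-KLRG1+ libraries, with 10, 11, 5 and 13 detected. Lyz2, Cd74 and Apoe were the 3 called, all lower in Tri, with log2 fold changes of -4.15, -4.15 and -4.65. Of the 15, 14 had a log2 fold change below 0. Itgam had 50.4 to 90.7 CPM in Tri PD1-KLRG1+ libraries. It was at 0 in 3 of 4 Iso PD1-KLRG1+ libraries and had 128.3 CPM in the other. Csf1r was at 0 in 3 of 4 Tri libraries and in 3 of 4 Iso libraries and had 243.5 CPM in the other Iso library. Tumour and stroma markers summed to 0 to 48.9 CPM in Tri PD1-KLRG1+ libraries and 42.9 to 3384 CPM in Iso PD1-KLRG1+ libraries. Of these, Col1a1 fell by 6.31 on the log2 scale in Tri, while Krt8 and Epcam were at 0 in all 8 libraries. Pecam1 overlapped, at 0 to 38.3 CPM in Tri PD1-KLRG1+ libraries and 0.858 to 53.8 CPM in Iso PD1-KLRG1+ libraries. CD8 T cell markers summed to 11291 to 12547 CPM in Tri PD1-KLRG1+ libraries and to 12311, 10989, 12522 and 7379 CPM in Iso PD1-KLRG1+ libraries. Malat1, a nuclear-retained RNA, rose in Tri by 1.79 ± 0.31 on the log2 scale (SE, edgeR adjusted p = 0.000745). The part of these markers in the mitochondrial difference was not tested.

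**Figure D4:**
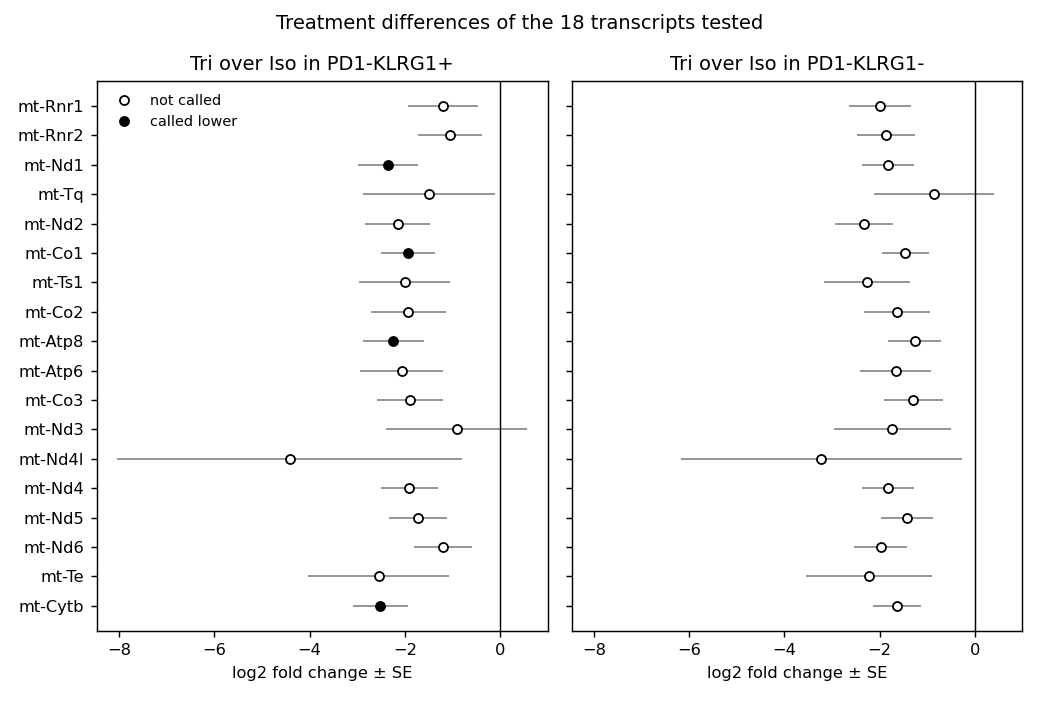
Log2 fold changes of Tri over Iso for the 18 tested members (points, with ± 1 SE bars on the x axis) in PD1-KLRG1- and PD1-KLRG1+ cells, with filled points for members called lower. All points lie below 0, with medians of -1.78 in PD1-KLRG1- and -1.93 in PD1-KLRG1+, and the filled points are mt-Cytb, mt-Nd1, mt-Atp8 and mt-Co1 in PD1-KLRG1+.

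Whether the treatment difference itself differed between KLRG1+ and KLRG1- cells was tested as an interaction. edgeR called 0 of 18 members, where 3.59% of all genes were called, and 0 had an unadjusted p under 0.05, where 18.3% did. DESeq2 and limma-voom also called 0 in either direction. They called 1.61% and 0.0% of all genes lower, and the shares called higher are not given. The interaction estimates ran from -1.19 to 0.82 on the log2 scale, with a median of -0.31 against 0.48 for all genes, and 12 of 18 were below 0. Without Iso PD1-KLRG1+ replicate 4 all 18 were above 0, with a median of 0.94 (0 called by edgeR, 5 with an unadjusted p under 0.05), and without Iso PD1-KLRG1- replicate 4 or Tri PD1-KLRG1+ replicate 4 the medians were 0.03 and 0.05. With a covariate for genes detected 4 of 18 were below 0, with a median of 1.07. In libraries without an RNA number all 18 were above 0 (0 called by edgeR, 5 with an unadjusted p under 0.05), and in those with it all 18 were below 0 (8 called, on lone libraries in 3 of the 4 groups). A difference between the 2 contrasts was thus not detected over all libraries, which does not show that they are alike.

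Within Tri mice, KLRG1+ and KLRG1- cells showed no member past the threshold in either PD-1 gate. In PD1+ cells edgeR called 0 of 18, where 0.0569% of all genes were called, and 0 had an unadjusted p under 0.05, where 6.61% did. Neither DESeq2 nor limma-voom called a member in either direction (0 each). They called 1.19% and 0.0925% of all genes lower, and the shares called higher are not given. In that gate 16 of 18 log2 fold changes were above 0, with a median of 0.38 against -0.07 for all genes. With 1 library left out the median was 0.25 to 0.57, and with a covariate for genes detected it was 0.02 with 10 of 18 above 0. At a common depth of 93198 counts, 7976 to 9057 genes were detected in Tri PD1+KLRG1+ libraries and 9122 to 9429 in Tri PD1+KLRG1- libraries, without overlap. mt-Nd6 had 57.2, 143, 123, 78.8 and 88.3 CPM in Tri PD1+KLRG1+ libraries and 79.7, 50.6, 80.6, 50.0 and 49.0 CPM in Tri PD1+KLRG1- libraries (log2 fold change 0.66, 95% interval -0.34 to 1.67). mt-Nd4 had 293, 1003, 777, 387 and 591 CPM in Tri PD1+KLRG1+ libraries and 494, 376, 556, 237 and 308 CPM in Tri PD1+KLRG1- libraries (0.64, interval -0.34 to 1.62). The ranges of both genes overlapped, with replicates 2 and 3 of Tri PD1+KLRG1+ the highest. mt-Te had 0.953, 1.57, 1.43, 0.367 and 0.304 CPM in Tri PD1+KLRG1+ libraries and 0.660, 0, 0.373, 0.0827 and 0.281 CPM in Tri PD1+KLRG1- libraries (1.43, interval -0.95 to 3.82). mt-Nd5, a complex I subunit, had 251, 356, 404, 411 and 377 CPM in Tri PD1+KLRG1+ libraries and 264, 224, 267, 208 and 251 CPM in Tri PD1+KLRG1- libraries (0.54, interval -0.46 to 1.54). The groups overlapped for mt-Te too, and for mt-Nd5 they did so through Tri PD1+KLRG1+ replicate 1.

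In Tri PD1- cells edgeR also called 0 of 18, where 0.0% of all genes were called, and 0 had an unadjusted p under 0.05, where 4.8% did. DESeq2 and limma-voom also called 0 in either direction. They called 1.07% and 0.064% of all genes lower, and the shares called higher are not given. Here 9 of 18 log2 fold changes were below 0 (12 with median-ratio size factors and 11 with scaling on nuclear genes), with a median of -0.02 against -0.01 for all genes. Without Tri PD1-KLRG1+ replicate 4 it was 0.26 with 4 below 0, and without Tri PD1-KLRG1+ replicate 2 it was -0.40 with 17 below 0. mt-Nd2 had 71.1, 216, 107 and 58.2 CPM in Tri PD1-KLRG1+ libraries and 195, 108, 151, 61.1 and 204 CPM in Tri PD1-KLRG1- libraries (-0.30, interval -1.48 to 0.87). mt-Atp8 had 45.1, 68.4, 58.8 and 37.4 CPM in Tri PD1-KLRG1+ libraries and 72.3, 53.9, 83.1, 38.6 and 82.9 CPM in Tri PD1-KLRG1- libraries (-0.23, interval -1.33 to 0.87). Both sets of ranges overlapped widely, with replicate 4, which carries an RNA number, lowest in each group. mt-Ts1 had 2.50, 17.3, 7.21 and 2.21 CPM in Tri PD1-KLRG1+ libraries and 9.74, 6.03, 15.5, 4.00 and 6.10 CPM in Tri PD1-KLRG1- libraries (-0.35, interval -2.07 to 1.37). mt-Te had 0.584, 0.112, 1.02 and 0.117 CPM in Tri PD1-KLRG1+ libraries and 0.947, 0.317, 0.863, 0.151 and 0.359 CPM in Tri PD1-KLRG1- libraries (-0.50, interval -3.02 to 2.01). The interaction of KLRG1 with PD-1 within Tri gave 0 of 18 members called by edgeR, where 0.0% of all genes were called, and 0 with an unadjusted p under 0.05, where 4.54% had one. There DESeq2 and limma-voom called 0 in either direction. They called 0.74% and 0.0356% of all genes lower, and the shares called higher are not given.

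In Iso PD1- cells the difference between KLRG1+ and KLRG1- depended on 1 library for its direction. edgeR called 0 of 18 members, where 8.66% of all genes were called, and 0 had an unadjusted p under 0.05, where 26.6% did. With DESeq2 and limma-voom 0 were called in either direction. They called 13.0% and 0.0% of all genes lower, and the shares called higher are not given. mt-Cytb had 2633, 2367, 429 and 13081 CPM in Iso PD1-KLRG1+ libraries and 1689, 2627, 3025 and 1647 CPM in Iso PD1-KLRG1- libraries (log2 fold change 0.93 ± 0.56, SE, edgeR adjusted p = 0.296). mt-Atp8 had 159, 65.1, 21.5 and 858 CPM in Iso PD1-KLRG1+ libraries and 144, 155, 193 and 84.2 CPM in Iso PD1-KLRG1- libraries (0.75 ± 0.63, adjusted p = 0.498). In both, Iso PD1-KLRG1+ held the highest and the lowest of the 8 values. mt-Rnr1 had 116, 40.7, 21.5 and 856 CPM in Iso PD1-KLRG1+ libraries and 146, 531, 473 and 135 CPM in Iso PD1-KLRG1- libraries (-0.84 ± 0.74, adjusted p = 0.522). mt-Rnr2 had 2276, 661, 494 and 4592 CPM in Iso PD1-KLRG1+ libraries and 2191, 6519, 5519.5 and 864 CPM in Iso PD1-KLRG1- libraries (-0.68 ± 0.68, adjusted p = 0.590). Without Iso PD1-KLRG1+ replicate 4, mt-Rnr1, mt-Rnr2, mt-Nd2 and mt-Nd6 were called lower in KLRG1+ cells and the members' median was -1.13 against -0.71 for all genes. Without replicate 3, mt-Cytb was called higher and the median was 0.62 against -0.59. In libraries without an RNA number (3 each) mt-Rnr1, mt-Nd2 and mt-Nd6 were called lower, and in the 1 pair with the number 8 members were called higher, again with a lone library on each side.

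Between PD1+ and PD1- cells of Tri mice no member passed in either KLRG1 gate. In KLRG1+ cells edgeR called 0 of 18, where 1.2% of all genes were called, and 0 had an unadjusted p under 0.05, where 11.2% did. DESeq2 and limma-voom also called 0 in either direction. They called 2.23% and 2.08% of all genes lower, and the shares called higher are not given. The median log2 fold change was 0.13 against -0.01 for all genes, with 6 of 18 below 0. Without Tri PD1-KLRG1+ replicate 4 it was -0.17 with 13 below 0, and without Tri PD1-KLRG1+ replicate 2 it was 0.56 with 2 below 0. mt-Nd4l had 0, 0, 5.25, 0 and 0 CPM in Tri PD1+KLRG1+ libraries and 14.8, 15.6, 0 and 0 CPM in Tri PD1-KLRG1+ libraries (-2.77, interval -7.79 to 2.26). With its copy Gm10222 added it had 19.4, 34.3, 33.1, 28.7 and 26.4 CPM in Tri PD1+KLRG1+ libraries and 16.0, 27.6, 15.7 and 11.3 CPM in Tri PD1-KLRG1+ libraries, and the sign of the log2 fold change turned, to 0.56. Reads of the 2 cannot be told apart, so no direction is given for mt-Nd4l in this comparison. mt-Ts1 had 9.96, 15.3, 24.5, 4.77 and 7.97 CPM in Tri PD1+KLRG1+ libraries and 2.50, 17.3, 7.21 and 2.21 CPM in Tri PD1-KLRG1+ libraries (0.83, interval -0.90 to 2.57). mt-Te had 0.953, 1.57, 1.43, 0.367 and 0.304 CPM in Tri PD1+KLRG1+ libraries and 0.584, 0.112, 1.02 and 0.117 CPM in Tri PD1-KLRG1+ libraries (1.13, interval -1.41 to 3.68). Values of these transfer RNAs overlapped throughout. mt-Nd4 had 293, 1003, 777, 387 and 591 CPM in Tri PD1+KLRG1+ libraries and 259, 835, 476 and 171 CPM in Tri PD1-KLRG1+ libraries (0.46, interval -0.60 to 1.51).

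In KLRG1- cells edgeR called 0 of 18 for PD1+ over PD1-, where 1.56% of all genes were called, and 0 had an unadjusted p under 0.05, where 9.52% did. By DESeq2 and limma-voom 0 were called in either direction. They called 1.65% and 6.15% of all genes lower, and the shares called higher are not given. All 18 log2 fold changes were below 0 with TMM scaling, from -1.74 to -0.01 with a median of -0.30 against 0.06 for all genes. The number below 0 was 17 with scaling on nuclear genes, 16 with median-ratio size factors and 8 without Tri PD1-KLRG1- replicate 5 and the 2 Iso PD1-KLRG1+ libraries that stand apart, and 12 to 18 with 1 library left out, with medians of -0.47 to -0.10. With a covariate for genes detected it was 8, with a median of 0.05. mt-Tq had 0.707, 0.131, 0.311, 0.0827 and 0.0703 CPM in Tri PD1+KLRG1- libraries and 1.08, 1.27, 1.90, 0.302 and 0.120 CPM in Tri PD1-KLRG1- libraries (-1.74, interval -4.11 to 0.62). mt-Atp8 had 56.9, 39.0, 51.4, 45.8 and 63.6 CPM in Tri PD1+KLRG1- libraries and 72.3, 53.9, 83.1, 38.6 and 82.9 CPM in Tri PD1-KLRG1- libraries (-0.44, interval -1.47 to 0.58). The groups overlapped for both. mt-Te had 0.660, 0, 0.373, 0.0827 and 0.281 CPM in Tri PD1+KLRG1- libraries and 0.947, 0.317, 0.863, 0.151 and 0.359 CPM in Tri PD1-KLRG1- libraries (-0.80, interval -3.15 to 1.55). mt-Nd5 had 264, 224, 267, 208 and 251 CPM in Tri PD1+KLRG1- libraries and 257, 148, 372, 126 and 585 CPM in Tri PD1-KLRG1- libraries (-0.31, interval -1.30 to 0.69), with the highest value in Tri PD1-KLRG1- replicate 5.

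The ratio of the 2 ribosomal RNAs separated the name series in every sort and treatment group. mt-Rnr1 counts were 13.7% to 26.6% of mt-Rnr2 counts in the 9 libraries with an RNA number (median 16.8%) and 4.35% to 10.4% in the 18 without (median 6.85%), so the 2 sets did not overlap. All 6 groups contain both kinds of library. The 2 genes lie next to each other at the start of the same precursor, mt-Rnr1 at chrM:70-1024 and mt-Rnr2 at chrM:1094-2675, with the gene of the valine transfer RNA, mt-Tv, between them. The labels do not say what distinguishes the series, so it cannot be told apart from anything else that changed with the names.

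**Figure D5:**
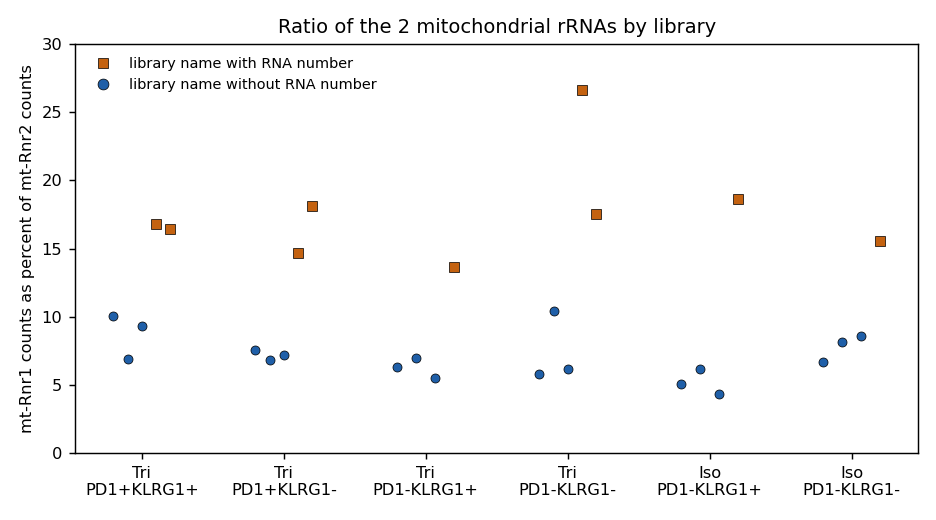
mt-Rnr1 counts as a percentage of mt-Rnr2 counts (y axis) in each library by group (x axis), with squares for library names with an RNA number and circles for those without. All 9 squares lie at 13.7% or above and all 18 circles at 10.4% or below.

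The nuclear genes that act with these transcripts were read from the same fits. Of 76 nuclear-encoded subunits of complexes I to V, edgeR called 0 in Tri over Iso in PD1-KLRG1- cells, where 0.804% of all genes were called. There 67 of 76 log2 fold changes were below 0, with a median of -0.24 against -0.09 for all genes. In PD1-KLRG1+ cells 2 of 76 rose in Tri, where 5.46% of all genes were called higher, namely the complex I subunits Ndufs4 (log2 fold change 1.58 ± 0.47, SE, edgeR adjusted p = 0.0428) and Ndufa11 (1.08 ± 0.33, adjusted p = 0.0480), and the median of the 76 was 0.34, as it was for all genes. In KLRG1+ over KLRG1- Iso PD1- cells 8 of 76 fell, where 7.43% of all genes were called lower, among them Ndufa5 by 1.86, Cox7b by 1.11 and Cox7a2 by 1.12 on the log2 scale, subunits of complexes I and IV. In PD1+ over PD1- Tri KLRG1- cells 1 of 76 fell, where 0.939% of all genes were called lower, namely Ndufa4, a complex IV subunit, by 1.46 ± 0.25 (SE, edgeR adjusted p = 0.000958). For KLRG1+ over KLRG1-, 0 of 76 were called in Tri PD1+ and Tri PD1- cells, where 0.0569% and 0.0% of all genes were. In PD1+ over PD1- Tri KLRG1+ cells 0 of 76 were called, where 1.2% of all genes were. Of 44 nuclear genes for the copying, processing, decay and translation of mitochondrial RNA, 0 were called in Tri over Iso in either PD1- gate. Of all genes, 0.804% were called in PD1-KLRG1- cells, and 0.619% lower and 5.46% higher in PD1-KLRG1+ cells. In KLRG1+ over KLRG1- Iso PD1- cells 3 of the 44 were called lower, where 7.43% of all genes were, namely Rexo2 at -1.71 ± 0.54 (SE, edgeR adjusted p = 0.0461), Fastkd5 and Twnk, the mitochondrial DNA helicase.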

How the data were processed

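RNA sequencing of total RNA from sorted CD8+ T cells gave 27 libraries in 6 groups, assigned from the sample labels. The authors deposited raw whole-number counts per Ensembl gene, and per the submitters' processing notes DESeq2 1.26.0 was used, without a stated role. Not given in the sources used here: aligner, counter, genome build, annotation and strand use. Symbols and positions were taken from GENCODE M21 (GRCm38), which named 47224 of 47729 identifiers and left 505 without a symbol. Mitochondrial members and gene lists were chosen with earlier results of these data known.

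Counts were tested with edgeR 4.0.16 (R 4.3.3, limma 3.58.1), by quasi-likelihood fits with robust dispersion and TMM scaling, after filterByExpr with a minimum count of 10 left 14059 genes. The model had 6 groups and the name series as terms, p-values were adjusted by the Benjamini-Hochberg method over all genes tested, and 0.05 was the threshold. There were 7 comparisons and 2 interactions, several of which share libraries. SE was the log2 fold change over the square root of F, and 95% intervals are normal ones. CPM is counts over the library total, times 1e6. Total counts, from 93198 to 26284630, set the precision. Values per library are given for up to 4 members with the smallest p in each comparison, and the rest by counts and ranges by role. Of nuclear lists, at most 3 called genes per comparison are named. Pseudogenes were aligned to members with BLAST 2.17.0, and figures were drawn with matplotlib 3.10.9 under Python 3.11.15. The fit was tested on simulated data. Alternatives were median-ratio and nuclear scaling, no count filter, no series term, each series alone, a replicate block, a covariate for genes detected, DESeq2 1.42.0, limma-voom with sample weights, libraries left out, and pseudogene counts added, the last chosen after seeing the data.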

Additional observations from a re-analysis of the deposited data

Results flagged for a closer look

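Of 114 checks for a library far from the others of its group, 13 were positive. Members checked in the same libraries are not independent, so no rate expected by chance is given. A member with counts in only 1 library of its group is always flagged, as mt-Nd4l was. Iso PD1-KLRG1+ replicate 4 was far above the other 3 libraries of its group for mt-Rnr1 (856 CPM, others 21.5 to 116), mt-Nd1 (8761 CPM, others 439.9 to 1862), mt-Nd2 (1383 CPM, others 118 to 299.8), mt-Atp8 (858 CPM, others 21.5 to 159), mt-Nd3 (198 CPM, others 0 to 20.9), mt-Nd6 (417 CPM, others 75.1 to 125) and mt-Nd4l (29.8 CPM, others 0). That library also had the highest myeloid marker sum of the series, 11193 CPM, and its part in these values was not tested. Iso PD1-KLRG1+ replicate 3, the library of 93198 counts, was apart for mt-Tq (0 CPM, others 1.40 to 1.53) and for mt-Te (10.7 CPM from 1 count, others 0.139 to 1.35).

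mt-Nd4l, whose reads cannot be told apart from those of Gm10222, was at 5.25 CPM in Tri PD1+KLRG1+ replicate 3, 12.2 CPM in Tri PD1+KLRG1- replicate 3 and 24.6 CPM in Tri PD1-KLRG1- replicate 1, with the others of each group at 0. mt-Atp8 was low in Tri PD1+KLRG1+ replicate 1, at 34.9 CPM against 55.1 to 62.6 CPM in the others.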

How the results depend on the processing

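In Tri over Iso PD1-KLRG1- cells, where 0 members were called, 12 were called with no count filter, 12 by limma-voom with sample weights, 6 by DESeq2, 9 without the 3 libraries that stood apart in earlier work (Tri PD1-KLRG1- replicate 5 and, of Iso PD1-KLRG1+, replicates 3 and 4), 1 in libraries without an RNA number, and 0 to 2 with 1 library left out. In Tri over Iso PD1-KLRG1+ cells, where 4 were called, 11 were called with no count filter, 9 by DESeq2, 0 by limma-voom, 0 with genes detected as a covariate, 2 without the 3 libraries, 7 with pseudogene counts added, 0 and 13 in libraries without and with the number, and 0 to 10 with 1 library left out. In KLRG1+ over KLRG1- Iso cells, where 0 were called, 2 were with no count filter, 3 without the 3 libraries, 3 and 8 in libraries without and with the number, and 0 to 4 with 1 left out. The interaction of KLRG1 with treatment gave 1 with no count filter and 8 in libraries with the number. For alternatives other than DESeq2 and limma-voom, the share of all genes called is not given here or above. Their counts of members called therefore cannot be set against all genes. The causes were not tested.

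The mean share differed by -2.25 percentage points in Tri over Iso PD1-KLRG1+ cells (-8.08 in libraries with the number, -3.14 to -0.42 with 1 left out), by 0.577 in KLRG1+ over KLRG1- Iso cells (7.15 in libraries with the number, -1.25 to 1.47 with 1 left out) and by -1.64 in Tri over Iso PD1-KLRG1- cells (-1.997 to -1.25 with 1 left out). In the last contrast the difference was smaller in libraries with the number, with shares of 0.416% and 0.986% in Tri and 1.37% in Iso.

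Log2 fold changes turned sign in these cases. In KLRG1+ over KLRG1- Iso cells mt-Cytb became -0.52 in libraries without the number, -0.055 without the 3 libraries and -0.46 without Iso PD1-KLRG1+ replicate 4 (1.39 at most with another library left out). There mt-Atp8 became -0.99, -0.54 and -0.84 under the same settings (1.19 at most with another library left out), -0.0487 with the covariate and -0.0174 by limma-voom, and mt-Rnr1 and mt-Rnr2 became 2.69 and 2.44 in libraries with the number. In PD1+ over PD1- KLRG1- cells mt-Nd5 became 0.17 with the covariate, 0.18 without the 3 libraries, 0.20 by limma-voom and 0.0195 without Tri PD1-KLRG1- replicate 5 (-0.52 at the lowest with another left out), and mt-Te became 0.0648 with the covariate. mt-Nd4l became 0.56 with pseudogene counts in PD1+ over PD1- KLRG1+ cells, and mt-Atp8 0.0177 in KLRG1+ over KLRG1- Tri PD1- cells without Tri PD1-KLRG1+ replicate 4 (-0.45 at the lowest with another left out). Of all other settings of named members, 512 kept direction and side of the threshold, 28 passed it and 29 no longer did. For mt-Nd4l in PD1+ over PD1- KLRG1+ cells no value came from libraries with the number, all being at 0.

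The labels do not say whether libraries with the same number share a mouse. Deviations of same-numbered libraries correlated at -0.071 to 0.149, and in no comparison did every pair exceed 0.1, so the numbers were not used as pairs. In KLRG1+ over KLRG1- Tri PD1+ cells each of the 5 pairs, at 0.0375 to 0.120, did exceed its highest correlation with another number. In every other comparison some pair did not, such as replicate 2 in KLRG1+ over KLRG1- Tri PD1- cells, at -0.071 against 0.087. Same-numbered libraries also share a name series, which was not removed from the deviations. A shared source was not tested. With the replicate block, fitted without the series term, 2 members were called in Tri over Iso PD1-KLRG1+ cells and 0 in every other comparison, mt-Atp8 became -0.27 in KLRG1+ over KLRG1- Iso cells, and the interaction of KLRG1 with treatment had 3 of 18 below 0 with a median of 0.58.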
